A study of Mus musculus with 4 samples.

Results

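The secreted WNT signals, their receptors and their extracellular inhibitors were described in 2 mouse tumour cell lines that lack Smarcb1 and in the same lines after Smarcb1 was put back. The SWI/SNF complex, which moves nucleosomes along DNA, has Smarcb1 among its core members. The genes were taken by name from the platform annotation: every Wnt, Fzd, Dkk and Sfrp gene, and Frzb, Wif1, Lrp5, Lrp6, Apcdd1, Axin2, Lef1, Lgr5, Nkd1, Rspo1, Rspo2 and Rspo3. Tcf7 is not analysed here. This gave 49 genes of the 19938 that had a probe set with a single gene symbol. Of them 19 are ligands, 12 receptors, 11 inhibitors, 4 belong to the R-spondin axis and 3 are feedback or nuclear genes.

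WNT proteins are lipid-modified secreted ligands that bind a Frizzled receptor (Fzd) together with the co-receptor Lrp5 or Lrp6. In the canonical branch this stops the destruction of beta-catenin, which then acts in the nucleus with LEF and TCF factors. Other ligands, such as Wnt5a and Wnt11, mostly signal without beta-catenin and act on cell shape and movement. Dkk1, Dkk2 and Dkk4 block the co-receptors, the Sfrp proteins, Frzb and Wif1 bind WNT ligands outside the cell, and R-spondins raise the number of receptors at the surface. The pathway steers the choice of fate in mesenchymal cells.

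Lines 167 and 365 were grown from Smarcb1-deficient soft tissue tumours of mice that were heterozygous for Smarcb1 and null for p53, on a C57BL6/SV129J background. All 4 groups therefore lack p53. Each line carried either the pMIG retrovirus with Smarcb1 or the empty pMIG virus, and RNA was taken 3 days after infection for 1 whole-transcript array per line and vector, 4 arrays in all. Each group of a vector thus holds 2 lines with 1 array each, and no repeat culture is labelled. The p-values rest on how far the lines differ in their change with Smarcb1, moderated across genes. They do not measure the spread between cultures. Smarcb1 itself had a log2 signal of 4.61 with empty vector and 7.83 with Smarcb1 in line 167. In line 365 the signals were 6.01 and 9.61, and the mean increase was 10.6-fold (limma adjusted p = 0.0371), so the vector labels match the signal.

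Values are deposited log2 signals made with RMA, which scales the arrays to a common distribution. A gene was tested when its mean over the arrays was at least log2 4.27, the 30th percentile of all genes, below which signal above background was not shown. Of the 49 genes 43 were tested, and Wnt1, Wnt3, Wnt8b, Fzd10, Sfrp5 and Lgr5 were not. The tests come from 1 limma model with a term for the line and a term for the vector, adjusted over all 13956 tested genes. A change within 1 line sets a single array against another and has no test, and the gap between both lines' changes could not be tested either. Signals of different genes come from different probes and were not set against each other.

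The labels give soft tissue as the tumour's site and name no cell type, so markers were read as levels only. Vimentin (Vim) lay between log2 13.27 and 13.53 on the 4 arrays, and 9 of 10 mesenchymal markers were above the limit on every array, with a mean of 8.46 and 9.38 in line 167 (empty vector, then Smarcb1) and 6.91 and 7.0 in line 365. The exception was Fap, between 3.03 and 3.48. Of 6 endothelial markers 1 stood out, Cdh5, at 9.06 and 8.29 in line 365 against 3.78 and 3.64 in line 167, while Pecam1, Kdr, Tek, Vwf and Emcn lay between 3.19 and 5.75. In bulk RNA fewer cells of a type and less RNA per cell cannot be told apart. The leukocyte marker Ptprc stayed between 3.66 and 4.06, epithelial markers between 3.79 and 6.04 and skeletal muscle markers between 3.45 and 6.50. Above the limit on every array were 6 of 7 epithelial, 4 of 6 skeletal muscle and 2 of 6 endothelial markers. That count alone therefore does not set the mesenchymal markers apart. A signal of at least log2 8 on every array was reached by 3 of the 10 mesenchymal markers, 1 leukocyte marker and 0 epithelial, muscle or endothelial markers. Of 7 leukocyte markers 3 were above the limit on every array. Cd68 was lower with Smarcb1 in both lines (9.32 and 8.69 in line 167, 9.95 and 8.18 in line 365). Csf1r was higher in both (4.70 and 4.80, 4.73 and 5.19), and Cd3e was higher in line 167 and lower in line 365. Ptprc, Adgre1, Itgam and Lyz2 lay below the limit on every array, so no direction was read for them. Of 4 glial and neuronal markers 3 were above the limit on every array. Tubb3 was higher with Smarcb1 in both lines (5.05 and 6.80, 4.86 and 7.20), Snap25 was lower in both (4.45 and 4.09, 4.44 and 4.14), Gfap was higher in line 167 and lower in line 365, and Rbfox3 lay between 4.59 and 4.77.

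Line 167 had the higher signal of Rspo3, Lef1, Lrp5, Fzd1, Fzd2, Fzd6, Fzd7, Wnt5a and Dkk3, whereas line 365 had the higher signal of the inhibitor genes Dkk1, Dkk2 and Sfrp1. These 12 of 43 tested genes (27.9%) passed the limma test for the line, beside 10.9% of all tested genes. Of them 9 were higher in line 167, where 5.64% of all genes were called in that direction, and 3 were higher in line 365, beside 5.31%. The line test takes both arrays of a line as its samples, and these differ in vector and are not repeats of the line. Its residual is the gap between the lines' changes with Smarcb1, so its p-values do not measure the spread between cultures. The mean mesenchymal marker level and Cdh5 differed between the lines as given above, and their part in these differences was not tested. Not every mesenchymal marker was higher in line 167. With empty vector Pdgfra, Thy1 and Fap were higher in line 365 (8.77, 5.07 and 3.14 against 8.50, 4.97 and 3.03). With Smarcb1 only Vim was higher there (13.36 against 13.30). With the cell line term alone in the model, Dkk3, Fzd1, Fzd6, Fzd7 and Wnt5a no longer passed, and without the intensity trend Dkk3 and Fzd6 did not.

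Smarcb1 changed 0 of the 43 genes past the adjusted limma threshold, beside 0.0645% of all tested genes, or 9 genes. At an unadjusted p below 0.05 there were 10 of 43, 9 higher and 1 lower, beside 11.6% of all genes. In line 167 and in line 365 alike, Apcdd1, Wnt5a, Fzd1, Fzd4 and Fzd8 were higher by at least 1.5-fold, 5 of 43 beside 2.79% of all genes. Dkk1 was the 1 gene at least 1.5-fold lower in both, beside 1.35%. The median change over the 43 genes was 0.25 in line 167 and 0.08 in line 365, and over all tested genes it was -0.06 and -0.01. Under 1.5-fold in both lines were 23 of the 43 genes, beside 78.7% of all genes.

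**Figure D1:**
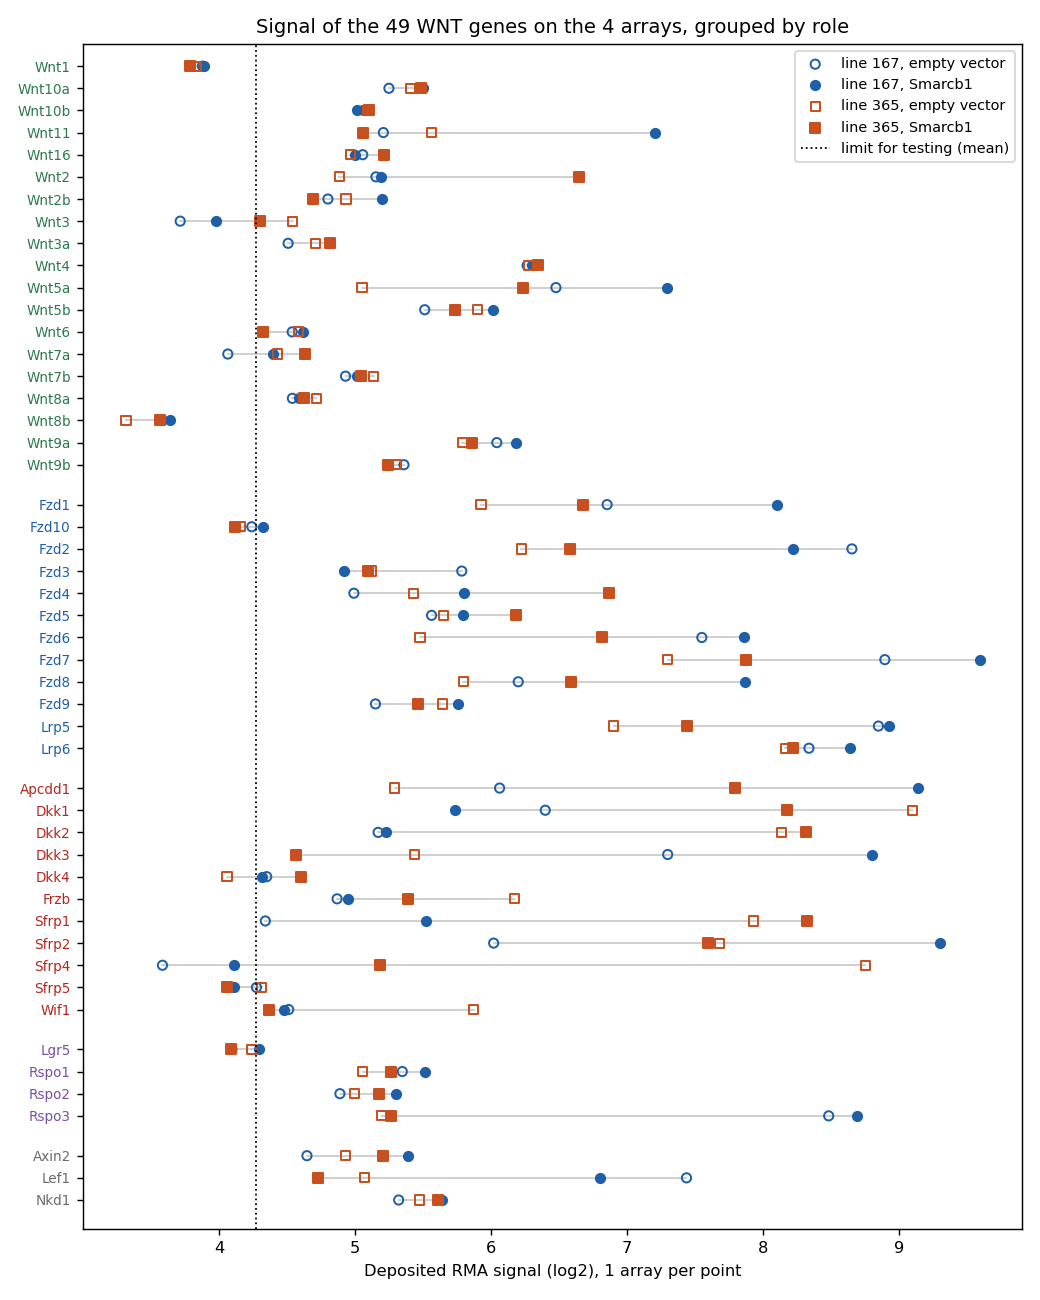
Deposited RMA signal (log2, horizontal axis) of the 49 genes, 1 point per array, with line 167 as circles, line 365 as squares, empty vector open and Smarcb1 filled. The dotted line is the limit of log2 4.27 that a gene's mean had to reach for testing; Rspo3, Dkk2, Sfrp1 and Dkk3 separate the lines under both vectors, and most Wnt genes hardly spread.

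Among the ligands Wnt5a was the 1 gene that differed between the lines and was higher with Smarcb1 in both. Wnt5a, which drives beta-catenin-independent signalling and cell movement, had a signal of 6.48 with empty vector and 7.29 with Smarcb1 in line 167, and of 5.05 and 6.23 in line 365. Within each line the Smarcb1 array was the higher one, and the vector groups overlapped because the empty-vector array of line 167 lay above the Smarcb1 array of line 365. The increase was 1.76-fold in line 167 and 2.27-fold in line 365, with a mean of log2 1.00 ± 0.20 (moderated SE, n = 2 lines; limma adjusted p = 0.209). Line 365 was lower by 1.24 on the log2 scale, or 2.36-fold (SE 0.20, limma adjusted p = 0.0320), and all 4 arrays kept the lines apart.

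A pair of ligands differed between the vectors in 1 line each, and they were picked out after their values were seen. Wnt11, another ligand of the beta-catenin-independent kind that is used in gastrulation and kidney branching, went from 5.21 to 7.20 in line 167, a 3.98-fold increase, and from 5.56 to 5.06 in line 365. Wnt2, a canonical ligand known from lung development, was at 5.15 and 5.19 in line 167 and went from 4.88 to 6.65 in line 365, a 3.40-fold increase. So each gene had a single high array, that of line 167 with Smarcb1 for Wnt11 and that of line 365 with Smarcb1 for Wnt2. Neither mean change passed (limma adjusted p = 0.680 and 0.516), since the residual of the test is the gap between the lines.

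The remaining ligands gave little. Leaving out Wnt5a, 15 ligands were tested, with a median change of 0.08 in line 167 and 0.01 in line 365, and 0 of them passed for the vector (limma; 0 also at an unadjusted p below 0.05) or for the line. Among them 1 was at least 1.5-fold higher in line 167 (Wnt11), 1 in line 365 (Wnt2), and 0 were at least 1.5-fold lower in either. All genes had 6.93% higher by that much in line 167, 6.49% higher in line 365, 7.8% lower in line 167 and 4.75% lower in line 365. Wnt5b, the closest relative of Wnt5a, was at 5.51 and 6.01 in line 167 and at 5.90 and 5.74 in line 365. Wnt4, a ligand of kidney and gonad development, was at 6.26 and 6.30 and at 6.27 and 6.34. Its other probe set had a lower signal, at 4.81 and 5.14 in line 167 and at 4.80 and 4.97 in line 365. Wnt3a, the ligand most used to activate beta-catenin in culture, lay between 4.51 and 4.81 on the 4 arrays. Wnt1, Wnt3 and Wnt8b, with means below the limit, lay between 3.32 and 4.54.

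Of 11 tested receptors 5 passed for the line, 45.5% beside 10.9% of all genes, and all 5 were higher in line 167: Fzd1, Fzd2, Fzd6, Fzd7 and Lrp5. The fitted means of Fzd4, Fzd5 and Fzd9 were higher in line 365, by 0.75, 0.24 and 0.10 on the log2 scale, and did not pass. With Smarcb1 0 passed (limma), while 5 of 11 had an unadjusted p below 0.05, beside 11.6% of all genes: Fzd1, Fzd4, Fzd6, Fzd7 and Fzd8, each higher in both lines. Fzd2 and Fzd3 were lower in line 167, and Fzd3 and Fzd9 in line 365. The median change of the 11 was 0.31 in line 167 and 0.54 in line 365.

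Fzd1 and Fzd7 are close relatives of the same subfamily and both passed for the line. The stretch before their RefSeq start sites (assembly GRCm38.p6, 250 bases on the strand of the gene) is shown for the motif CTTTGA. This motif is a form of the TCF/LEF core. Fzd1 holds it and Fzd7, called in the same direction, does not. Other forms of the core were not searched for, so a window without capitals may still hold one. Capitals mark CTTTGA or its reverse complement TCAAAG, searched on both strands.
Fzd1: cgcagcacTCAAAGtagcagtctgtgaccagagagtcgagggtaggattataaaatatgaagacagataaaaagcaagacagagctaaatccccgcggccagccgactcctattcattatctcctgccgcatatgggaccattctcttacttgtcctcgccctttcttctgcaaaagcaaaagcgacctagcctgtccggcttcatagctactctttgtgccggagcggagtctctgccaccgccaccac
Fzd7: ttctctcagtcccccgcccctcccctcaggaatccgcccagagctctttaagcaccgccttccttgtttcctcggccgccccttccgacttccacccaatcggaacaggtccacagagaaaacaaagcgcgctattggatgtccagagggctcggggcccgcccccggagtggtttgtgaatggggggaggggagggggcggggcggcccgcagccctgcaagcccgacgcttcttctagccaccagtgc
The Fzd1 window is chr5:4758217-4758466 on the minus strand and that of Fzd7 is chr1:59481897-59482146 on the plus strand. The match in Fzd1 begins 242 bases before the start site. A match is a stretch of letters, not a shown binding site.

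Fzd7, a receptor for canonical ligands, had a signal of 8.89 and 9.59 in line 167 (empty vector, then Smarcb1) and of 7.30 and 7.87 in line 365. The lines did not overlap, and line 365 was lower by 1.66 on the log2 scale, or 3.15-fold (SE 0.15, limma adjusted p = 0.00949). With Smarcb1 it was 1.62-fold higher in line 167 and 1.49-fold higher in line 365 (limma adjusted p = 0.269). Fzd1 was at 6.85 and 8.10 in line 167 and at 5.92 and 6.68 in line 365, so that line 365 was 2.26-fold lower (limma adjusted p = 0.0396). Its increase with Smarcb1 was 2.37-fold in line 167 and 1.68-fold in line 365 (limma adjusted p = 0.230).

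Fzd2, which also binds Wnt5a, had the largest fitted line difference among the receptors, at 8.65 and 8.22 in line 167 against 6.22 and 6.58 in line 365. Line 365 was lower by 2.03 on the log2 scale, or 4.09-fold (SE 0.25, limma adjusted p = 0.0169). With Smarcb1 it was slightly lower in line 167 and slightly higher in line 365, so the gap was 5.39-fold with empty vector and 3.11-fold with Smarcb1, where that of Fzd7 was 3.29-fold. Fzd6, a receptor of planar cell polarity, was at 7.55 and 7.86 in line 167 and went from 5.48 to 6.82 in line 365. Its line difference was 2.94-fold (limma adjusted p = 0.0429) and narrowed from 4.21-fold to 2.06-fold with Smarcb1. No test of such narrowing is possible with these arrays.

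Fzd4, the receptor of Norrin as well as of WNT ligands in blood vessels, went from 4.99 to 5.80 in line 167, and in line 365 from 5.43 to 6.86. Both Smarcb1 arrays lay above both empty-vector arrays, with a mean increase of log2 1.12 ± 0.23 (moderated SE; 2.18-fold, limma adjusted p = 0.209). Fzd8 went from 6.20 to 7.86 in line 167, or 3.17-fold, and from 5.79 to 6.59 in line 365, or 1.73-fold. Its vector groups did not overlap either (mean increase log2 1.23 ± 0.27, limma adjusted p = 0.238). With so few arrays such separation is a weak trait, and its share over all genes was not counted. Wnt4 had it too, with changes of only 0.04 in line 167 and 0.07 in line 365 on the log2 scale. Neither receptor passed for the line (limma adjusted p = 0.108 for Fzd4 and 0.121 for Fzd8). Fzd3, also a planar polarity receptor and picked out after its values were seen, was lower in line 167, from 5.78 to 4.92, and was at 5.12 and 5.10 in line 365. Fzd5 and Fzd9 stayed between 5.15 and 6.18 on all arrays, and Fzd10, not tested, between 4.12 and 4.32.

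The co-receptors differed in how they separated the lines. Lrp5 was at 8.85 and 8.92 in line 167 and at 6.90 and 7.44 in line 365, a difference of 3.29-fold (log2 -1.72 for line 365 minus line 167, SE 0.19, limma adjusted p = 0.0138). Its paralog Lrp6 was at 8.34 and 8.64 and at 8.16 and 8.22, with a difference of log2 -0.30 and a 95% interval from -0.72 to 0.13 (limma adjusted p = 0.294). With Smarcb1 the mean change was 0.31 for Lrp5 and 0.18 for Lrp6 on the log2 scale, and neither passed (limma adjusted p = 0.595 and 0.718).

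**Figure D2:**
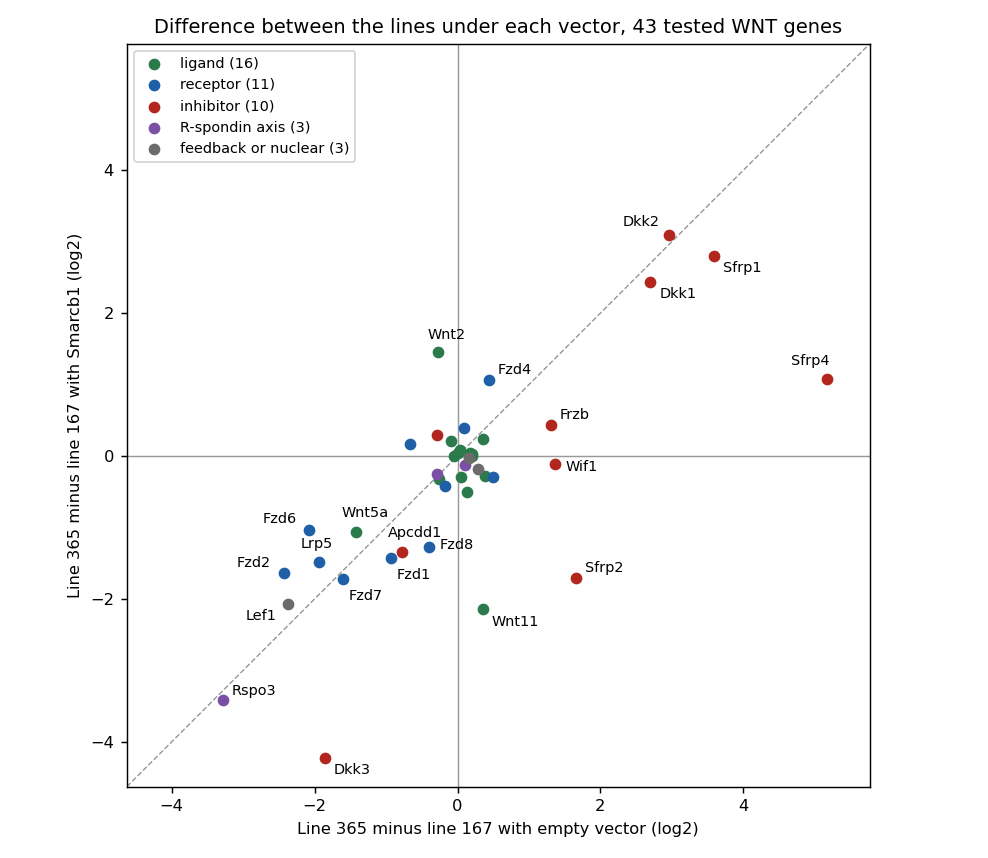
Difference of line 365 minus line 167 (log2) with empty vector (horizontal axis) and with Smarcb1 (vertical axis) for the 43 tested genes, coloured by role, with 1 array behind each side of a difference and the dashed line marking equal differences. The 5 receptors that passed lie at the lower left, higher in line 167 under both vectors, while Dkk1, Dkk2 and Sfrp1 lie at the upper right, higher in line 365, and Sfrp2 and Sfrp4 lie far off the dashed line.

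Of 10 tested inhibitors 4 passed for the line, 40% beside 10.9% of all genes, with Dkk1, Dkk2 and Sfrp1 higher in line 365 and Dkk3 higher in line 167. Their median absolute line difference was log2 1.81, against 0.28 over all tested genes. Sfrp4 is among the 10 and was tested only through its level in line 365, as both its line 167 arrays lay below the limit. The median with Sfrp4 in it therefore supports nothing about the group. With Smarcb1 0 passed (limma), and 3 of 10 had an unadjusted p below 0.05, Apcdd1 and Sfrp1 higher and Dkk1 lower, beside 11.6% of all genes. In line 365 5 of 10 were at least 1.5-fold lower (Dkk1, Dkk3, Frzb, Sfrp4 and Wif1) beside 4.75% of all genes. The place of Sfrp4 among these 5 supports nothing, for the same reason. In line 167 4 of 10 were at least 1.5-fold higher (Apcdd1, Dkk3, Sfrp1 and Sfrp2) beside 6.93%.

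Apcdd1, a membrane protein that binds WNT and Lrp5 and blocks the signal, was the gene nearest to the threshold for Smarcb1. Its signal went from 6.06 to 9.14 in line 167, and in line 365 from 5.29 to 7.79, so both Smarcb1 arrays lay far above both empty-vector arrays. The increases were 8.42-fold and 5.67-fold, with a mean of log2 2.79 ± 0.22 (moderated SE) and a 95% interval from 2.21 to 3.37 (limma adjusted p = 0.0577). Line 365 was lower by 1.06 on the log2 scale (limma adjusted p = 0.0518). Both values lay just above the threshold, and both crossed it under several of the alternative settings: the adjusted p over 7 alternatives ran from 0.0167 to 1 for the vector and from 0.0279 to 0.676 for the line.

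Dkk1 and Dkk2 both bind Lrp5 and Lrp6, Dkk1 as a strong inhibitor and Dkk2 with a weaker action that can turn into activation. Their windows before the RefSeq start (GRCm38.p6, 250 bases) are shown because both genes were called in the same direction and differ in CTTTGA. Only the first holds CTTTGA on either strand, with 2 matches in capitals, and other forms of the TCF/LEF core were not searched for.
Dkk1: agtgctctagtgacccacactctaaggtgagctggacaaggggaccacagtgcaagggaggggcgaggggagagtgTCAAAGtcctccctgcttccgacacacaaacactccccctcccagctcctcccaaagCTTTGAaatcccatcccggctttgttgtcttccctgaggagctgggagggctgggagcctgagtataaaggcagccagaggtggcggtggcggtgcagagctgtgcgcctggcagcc
Dkk2: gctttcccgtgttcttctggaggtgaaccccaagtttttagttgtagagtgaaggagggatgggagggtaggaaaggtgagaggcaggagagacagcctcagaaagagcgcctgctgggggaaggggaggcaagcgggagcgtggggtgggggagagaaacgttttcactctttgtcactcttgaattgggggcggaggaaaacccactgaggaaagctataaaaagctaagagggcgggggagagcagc
The Dkk1 window is chr19:30549497-30549746 on the minus strand, and its matches begin 174 and 117 bases before the start site. The Dkk2 window is chr3:132085042-132085291 on the plus strand. Dkk1 is itself a known target of beta-catenin, as background.

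Dkk1 had a signal of 6.40 and 5.73 in line 167 (empty vector, then Smarcb1) and of 9.10 and 8.17 in line 365. Line 365 was higher by log2 2.57 ± 0.19 (moderated SE), or 5.93-fold (limma adjusted p = 0.00543). Within each line the Smarcb1 array was the lower one, 1.58-fold in line 167 and 1.89-fold in line 365 (mean log2 -0.79 ± 0.19, limma adjusted p = 0.258). Dkk2 was at 5.17 and 5.23 in line 167 and at 8.13 and 8.31 in line 365. Line 365 was higher by 3.03 ± 0.19 on the log2 scale, or 8.14-fold (limma adjusted p = 0.00424), with a gap of 7.80-fold under empty vector and 8.50-fold under Smarcb1. Its change with Smarcb1 was 0.12 with a 95% interval from -0.37 to 0.61 (limma adjusted p = 0.840).

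Dkk3, a divergent member that is often silenced in tumours and does not act as a plain Lrp5 and Lrp6 blocker, ran the other way. It went from 7.30 to 8.80 in line 167, or 2.83-fold up, and from 5.44 to 4.57 in line 365, or 1.83-fold down. The lines did not overlap, and line 365 was lower by 3.05 on the log2 scale (SE 0.57, 8.26-fold, limma adjusted p = 0.0410). The gap was 3.63-fold with empty vector and 18.8-fold with Smarcb1. The Smarcb1 array of line 365 lay close to the limit, so the size of the second gap and of the decrease is uncertain. It was the 1 gene of the 43 with opposite changes of at least 1.5-fold, beside 0.494% of all genes. Dkk4, an Lrp5 and Lrp6 blocker like Dkk1, lay between 4.06 and 4.60 on the 4 arrays.

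Of the secreted Frizzled-related proteins, Sfrp1 separated the lines under both vectors. It was at 4.34 and 5.52 in line 167 and at 7.93 and 8.32 in line 365, higher in line 365 by log2 3.19 ± 0.26 (moderated SE), or 9.15-fold (limma adjusted p = 0.00735). The gap was 12.0-fold with empty vector, from a line 167 array close to the limit, and 6.95-fold with Smarcb1. In line 167 it was 2.27-fold higher with Smarcb1 and in line 365 1.31-fold (limma adjusted p = 0.376). Frzb, a relative first known from cartilage, was at 4.87 and 4.95 in line 167 and at 6.17 and 5.38 in line 365, with a line difference of 0.87 (limma adjusted p = 0.103).

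Sfrp4 and Sfrp2 gave the largest single-line changes of the 43 genes. Sfrp4, a WNT-binding protein known from bone, went from 8.75 to 5.18 in line 365, an 11.9-fold decrease, and in line 167 it was at 3.58 and 4.11, both below the limit of 4.27. The empty-vector array of line 365 thus stood alone, and the difference between the lines, 35.9-fold with empty vector and 2.10-fold with Smarcb1, is uncertain in size because line 167 lay below the limit. Its line difference of log2 3.12 had an SE of 0.95 (limma adjusted p = 0.108) and its mean change with Smarcb1 was log2 -1.52 with a 95% interval from -4.02 to 0.97 (limma adjusted p = 0.595). Sfrp2, which mesenchymal cells secrete, went from 6.02 to 9.30 in line 167, a 9.71-fold increase, and was at 7.68 and 7.59 in line 365. Line 167 therefore started 3.16-fold below line 365 and ended 3.26-fold above it. Its mean change was 1.60 with a 95% interval from -0.47 to 3.66 on the log2 scale (limma adjusted p = 0.526), and it was picked out, like Wif1, after the values were seen. The mean mesenchymal marker level was also higher in line 167 with Smarcb1, as given above, with a median marker change of 0.75 there and 0.06 in line 365, and its part in the Sfrp2 change was not tested.

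Wif1, which traps WNT ligands in the matrix, was at 4.51 and 4.48 in line 167 and went from 5.87 to 4.37 in line 365, or 2.84-fold down (mean change log2 -0.77, limma adjusted p = 0.515). As with Sfrp4, the empty-vector array of line 365 was the single high one. Sfrp5, not tested, stayed between 4.06 and 4.31.

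**Figure D3:**
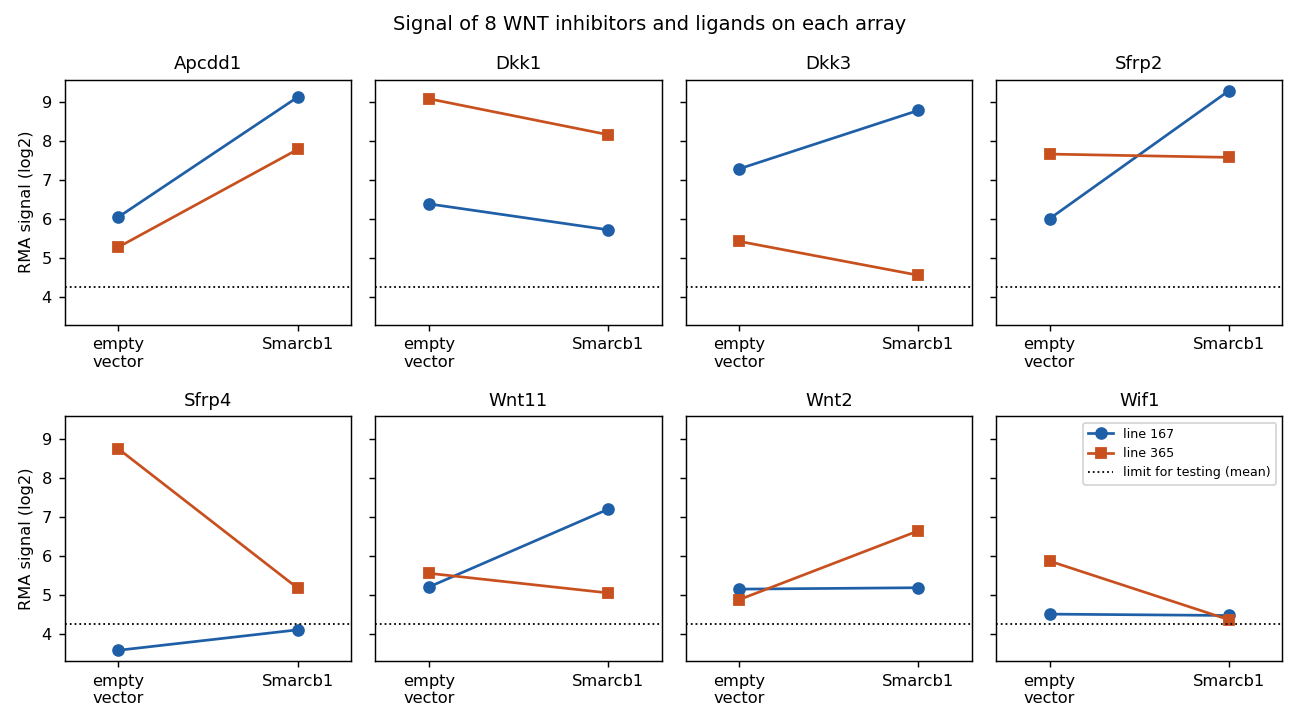
RMA signal (log2, vertical axis) of 6 inhibitors and 2 ligands on the empty-vector and the Smarcb1 array of each line, joined by a line per cell line, with the limit of log2 4.27 dotted. Apcdd1 and Dkk1 move the same way in both lines, Dkk3 moves in opposite ways, and Sfrp2, Sfrp4, Wnt11, Wnt2 and Wif1 each move mainly in 1 line.

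In the R-spondin axis Rspo3 gave the smallest line p of the 43 genes. R-spondins bind the Lgr receptors and keep Frizzled proteins at the surface. Rspo3 was at 8.48 and 8.69 in line 167 and at 5.19 and 5.27 in line 365, lower in line 365 by 3.35 on the log2 scale (SE 0.19), or 10.2-fold (limma adjusted p = 0.00369). The gap was 9.75-fold with empty vector and 10.7-fold with Smarcb1, and the change with Smarcb1 was 0.14 with a 95% interval from -0.35 to 0.63. Rspo1 lay between 5.05 and 5.51 and Rspo2 between 4.89 and 5.30, and neither passed in either comparison. Lgr5, the stem cell receptor of R-spondins, was not tested and lay between 4.09 and 4.29.

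The feedback and nuclear genes give a view of the beta-catenin branch, since Axin2 and Nkd1 are inhibitors that the pathway switches on and Lef1 is both a partner and a target of beta-catenin. Lef1 was at 7.44 and 6.80 in line 167 and at 5.07 and 4.73 in line 365. Line 365 was lower by 2.22 on the log2 scale (SE 0.20), or 4.66-fold (limma adjusted p = 0.00871), and the lines did not overlap. With Smarcb1 it was lower in both lines, by 0.64 and 0.34 in size (mean log2 -0.49, limma adjusted p = 0.447). Axin2 was at 4.65 and 5.39 in line 167 and at 4.93 and 5.20 in line 365, higher with Smarcb1 by a mean of 0.51 with a 95% interval from 0.01 to 1.01 (limma adjusted p = 0.420). The vector groups of Axin2 did not overlap, nor did those of Nkd1 at a smaller change. The line difference of Axin2 was 0.05 with a 95% interval from -0.45 to 0.55. Nkd1 was at 5.32 and 5.64 and at 5.47 and 5.61 (limma adjusted p = 0.669 for the vector and 0.860 for the line). Lef1 thus separated the lines while Axin2 and Nkd1 gave line differences near 0, and the difference between these genes was not tested.

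Of the windows before the RefSeq starts of Lef1 only the last one listed holds CTTTGA on either strand, with 2 matches, and it is shown for that. The windows of the other Lef1 starts listed hold 0 matches.
Lef1: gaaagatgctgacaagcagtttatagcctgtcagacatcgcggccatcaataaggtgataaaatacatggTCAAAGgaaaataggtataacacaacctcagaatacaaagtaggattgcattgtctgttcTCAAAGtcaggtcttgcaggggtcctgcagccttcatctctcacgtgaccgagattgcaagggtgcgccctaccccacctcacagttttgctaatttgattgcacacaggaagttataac
This window is chr3:131156044-131156293 on the plus strand (GRCm38.p6), with matches that begin 180 and 120 bases before the start site, and which start these cells use is not measured here. Over all windows of 250 bases before a RefSeq start, CTTTGA on either strand was found in 13.8% of 32851, and in 6 of 37 windows (16.2%) of the 31 WNT genes listed there. The AP-1 motif TGANTCA, which reads the same on both strands, was found in 6.75% of all windows and in 1 of the 37 (2.7%), before a start of Wnt5b. No match of the 2 motifs overlapped another, and the search of short windows says nothing about binding of a factor.

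**Figure D4:**
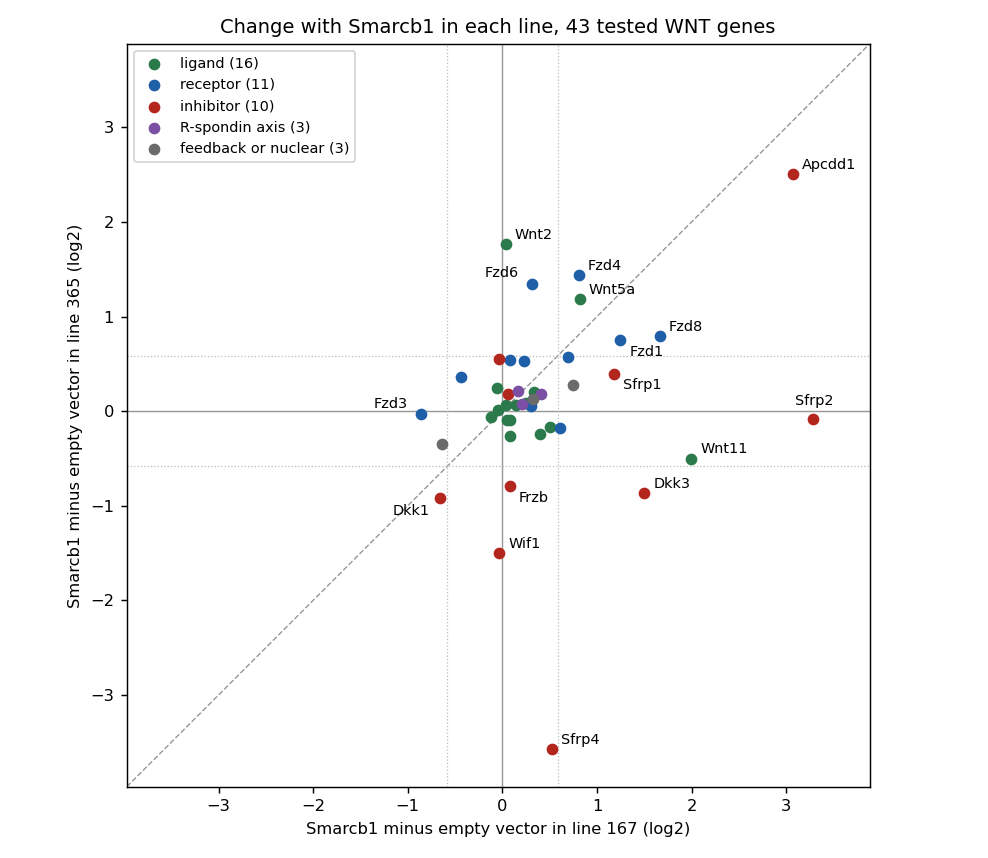
Change with Smarcb1 (log2, Smarcb1 minus empty vector) in line 167 (horizontal axis) and in line 365 (vertical axis) for the 43 tested genes, coloured by role, with 1 array on each side of a change, dotted lines at 1.5-fold and the dashed line at equal changes. Apcdd1 lies at 3.07 and 2.50 near the dashed line, Sfrp2 and Wnt11 lie to the right, Sfrp4 and Wif1 at the bottom, and 23 genes stay within 1.5-fold in both lines.

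Other genes of the pathway were counted from 7 lists, of which 115 genes matched the annotation and 107 were tested. With Smarcb1 0 of them passed (limma), and 18 had an unadjusted p below 0.05, 17 higher and 1 lower. That is 16.8%, beside 11.6% of all genes, of which 820 were higher and 793 lower. For the line 17 passed, 15.9% beside 10.9% of all genes, 11 higher in line 167 and 6 higher in line 365. Without the intensity trend 14 passed, not all of them among these 17. Ctnnb1, Ccnd1, Gpc4 and Reck no longer passed (limma adjusted p = 0.0957, 0.0883, 0.0551 and 0.0511). With the cell line term alone 6 passed: Fosl1, Nlk, Daam1, Ndp, Ptk7 and Ror2.

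Surface modulators made up 7 of these 17, out of 21 tested (33.3%, beside 10.9% of all genes). Ptk7, a receptor-like protein of planar cell polarity, was at 8.14 and 8.28 in line 167 and at 5.18 and 5.76 in line 365, or 6.65-fold lower in line 365 (limma adjusted p = 0.00634). Ror2, a receptor of Wnt5a, was at 7.23 and 7.48 and at 6.14 and 6.18, or 2.29-fold lower (limma adjusted p = 0.0296). Gpc3, Gpc4 and Gpc6, glypicans that hold WNT proteins at the membrane, and Reck, a partner of Wnt7 signalling, were 1.87-fold to 2.43-fold lower in line 365 (limma adjusted p between 0.0333 and 0.0478). Ndp, which encodes the Fzd4 ligand Norrin, was higher in line 365, at 5.85 and 5.55 against 3.97 and 4.05. Both arrays of line 167 lay below the limit, so Ndp was tested only through its level in line 365, and its place among the 7 and the 17 supports nothing. With Smarcb1, Gpc4 went from 7.44 to 8.94 in line 167, and in line 365 from 5.85 to 8.12 (mean log2 1.88 ± 0.24, limma adjusted p = 0.0993), and Adgra2, the partner of Reck, from 5.51 to 7.15 and from 6.64 to 7.73 (limma adjusted p = 0.145). Gpc6 was also higher by at least 1.5-fold in both lines.

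In the Dishevelled and destruction complex list 1 of 21 (4.76%, beside 10.9% of all genes) passed for the line, the beta-catenin gene Ctnnb1, at 11.42 and 11.44 in line 167 and at 10.77 and 10.94 in line 365 (1.49-fold lower in line 365, limma adjusted p = 0.0388). The largest change with Smarcb1 in that list, in either line, was 0.51 in size on the log2 scale. Of 15 nuclear partners 2 (13.3%, beside the same 10.9%) passed for the line, Bcl9l, a co-activator of beta-catenin that was 2.71-fold lower in line 365, and Nlk, a kinase that acts on TCF proteins and was 2.52-fold higher. Hipk2, another kinase of that list, went from 6.16 to 7.94 in line 167, and in line 365 from 6.03 to 7.96 with Smarcb1 (mean log2 1.86 ± 0.19, limma adjusted p = 0.0723), and the co-repressor gene Tle4 was lower, from 6.35 to 5.70 and from 6.48 to 5.89 (limma adjusted p = 0.341). Hipk2 had the smallest vector p of the 107.

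Of 14 planar polarity genes 3 (21.4%, beside 10.9% of all genes) passed for the line, Daam1 and Intu higher in line 365 and Prickle3 higher in line 167. Of 19 TCF target genes 4 (21.1%) passed. Fosl1, an AP-1 subunit, was 4.66-fold higher in line 365 (limma adjusted p = 0.00611) and the cyclin gene Ccnd1 1.62-fold higher (limma adjusted p = 0.0396), whereas Tbx3 and the mesenchymal factor Twist1 were 2.03-fold and 3.65-fold lower. Ephb3 was higher with Smarcb1, from 5.26 to 7.08 in line 167, and in line 365 from 5.49 to 6.49 (limma adjusted p = 0.181). In the list of other inhibitors 0 of 11 passed in either comparison, with Igfbp4 (1.33 and 0.99) and Bambi (0.89 and 0.69) higher with Smarcb1 on the log2 scale in line 167 and line 365. In the list of secretion genes 0 of 6 passed in either comparison.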

How the data were processed

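RNA from 2 cell lines with 2 vectors was measured on 4 arrays. The authors deposited log2 values, and the submitters' processing notes name RMA and Affymetrix Expression Console. RMA subtracts background, forces all arrays onto 1 distribution and merges probes into sets, so a change in total RNA per cell cannot be seen. Software version and annotation release: not given in the sources used here. Of 35556 probe sets 21789 carried 1 symbol, 1621 several and 12146 were not listed. They gave 19938 genes, and the probe set with the highest mean stood for a gene. Wnt4 alone of the 49 genes had 2. Genes whose mean fell under the 30th percentile were left out.

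The fit was made with limma 3.58.1 in R 4.3.3 (lmFit, eBayes with an intensity trend), with terms for line and vector. Tests were two-sided, adjusted by Benjamini-Hochberg at 0.05. The fit was also run on simulated data with independent noise and no difference of the lines in their response. That setting differs from these data, so the run says nothing about how far their p-values hold. The residual has 1 degree of freedom, the difference of the lines in their response, and eBayes added 3.75. SEs are moderated across genes. The pairing follows from the cell lines, whose arrays deviated together from the vector means (correlation 0.770 across genes). The number of arrays limits the precision.

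The members and lists were chosen with earlier results of these data known. Described in full were members past a threshold, those with 1.5-fold or more in one direction in both lines or in opposite directions, the 5 widest line differences each way, and Wnt5a, Axin2, Lef1, Lgr5, Nkd1, Apcdd1, Lrp5 and Lrp6. From the 7 other lists (secretion, surface modulators, other inhibitors, Dishevelled and destruction complex, nuclear partners, planar polarity, TCF targets) genes past the threshold were named, and up to 3 with a like-signed change of 1.5-fold or more in both lines. Entries without a match are not analysed here. Alternatives were other filters, normalizations, variance priors, probe set rules and models. Promoter windows came from RefSeq (GRCm38.p6).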

Additional observations from a re-analysis of the deposited data

Results flagged for a closer look

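Dkk3 differed in opposite directions in the lines, at log2 1.5 in line 167 and -0.87 in line 365 (Smarcb1 minus empty vector). With 1 array on each side this difference was not tested, and the Smarcb1 array of line 365 lay close to the limit.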

How the results depend on the processing

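Among the 20 members described in full and tested, 0 called differences changed sign under the alternatives run. The filters, the variance prior and the models with fewer terms leave each fitted difference unchanged, so they could not change a sign. The probe set rule could not either, since these members had a single probe set each. Only the normalizations and leaving out arrays could do so. With Smarcb1, 1 member was called in place of 0, Apcdd1, without the filter, with a filter set to the 50th percentile, with quantile normalization and after cyclic loess. The count over all genes went from 9 to 68, 101, 48 and 49 in that order, and to 0 with no replicate block, that is without the cell line (450 at an unadjusted p below 0.05). Other pathway genes called went from 0 to 1, 2, 1 and 1 in the same order. With no replicate block the members called stayed at 0 (2 at an unadjusted p below 0.05), as did the other pathway genes (10). For the line, the model with the cell line term alone called 7 of the 12 members, without Dkk3, Fzd1, Fzd6, Fzd7 and Wnt5a, 653 genes in place of 1528 and 6 other pathway genes in place of 17. Without the intensity trend Dkk3 and Fzd6 were lost (limma adjusted p = 0.0541 and 0.0506). Leaving out a line gives the value of the other line, and no test, as no residual is left.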
